A study of Mus musculus with 8 samples.

Results

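Cyclins of the G1 phase, the kinases they activate, the retinoblastoma protein and its E2F partners decide whether a cell starts to copy its DNA. The set described here holds 10 genes of that decision, Ccnd1, Ccnd2, Ccnd3, Cdk4, Cdk6, Ccne1, Ccne2, Cdk2, Rb1 and E2f2. They were taken by gene symbol from the array's platform annotation, which gave 28 probe sets (groups of short probes that report 1 transcript region) of 45101 on the array, and 10 of 18193 named genes. All 10 genes passed the filter on dim genes, which kept 11386 genes with at least 2 of 4 animals above that animal's median over all probe sets.

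RNA came from spleen cells of leukemic mice that expressed a fusion of the core-binding factor subunit CBFb with the smooth muscle myosin heavy chain rod, the protein made by the inv(16) rearrangement of acute myeloid leukemia. One group carried the full-length CBFb-SMMHC and was sampled 2 months after the mutagen ENU (N-ethyl-N-nitrosourea). The other expressed CBFb-SMMHCd179-221, a form without a segment used for high-affinity binding of RUNX1, and was sampled 3 weeks after birth. The series text describes the full-length animals as knock-in mice and the truncated ones as chimeras, whereas the genotype label calls both chimeras. In a chimera only some cells carry the fusion, and that share is not given, nor is the strain. In this design genotype, ENU and age cannot be told apart. Each genotype had 4 arrays from 2 animals, 1 array of animal 1 and 3 arrays of animal 2, and no healthy spleen was among them.

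In G1, mitogens raise the D cyclins (Ccnd1, Ccnd2, Ccnd3), which bind and activate CDK4 and CDK6. These kinases phosphorylate RB, which until then holds E2F transcription factors inactive. Released E2F factors, E2F2 among them, turn on genes of DNA synthesis as well as the E cyclins (Ccne1, Ccne2), which activate CDK2 and complete RB phosphorylation. Blood cells differ in which D cyclin and which of CDK4 and CDK6 they use, and red cell precursors rely on cyclin D3 and on E2F2 as they divide and then stop.

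RefSeq promoter windows (build GRCm38.p6, from 250 bases before the transcription start to 50 after it) were held for 6 of the 10 genes, namely Ccnd3, Cdk4, Cdk6, Ccne1, Cdk2 and E2f2. Ccnd1, Ccnd2, Ccne2 and Rb1 had no entry. Those of Cdk4 and E2f2, which with Ccnd1 varied most between arrays, and that of Cdk2, which varied least, are shown with motif matches in capitals. The Cdk4 window is chr10:127063285-127063584 on the plus strand, that of E2f2 is chr4:136172024-136172323 on the plus strand, and that of Cdk2 is chr10:128705002-128705301 on the minus strand.
Cdk4: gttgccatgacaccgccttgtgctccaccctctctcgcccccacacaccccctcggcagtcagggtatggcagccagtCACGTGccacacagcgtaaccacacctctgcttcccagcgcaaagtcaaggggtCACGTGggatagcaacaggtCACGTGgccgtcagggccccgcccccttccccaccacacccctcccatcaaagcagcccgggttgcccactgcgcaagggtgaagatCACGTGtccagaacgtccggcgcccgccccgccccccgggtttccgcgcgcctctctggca
E2f2: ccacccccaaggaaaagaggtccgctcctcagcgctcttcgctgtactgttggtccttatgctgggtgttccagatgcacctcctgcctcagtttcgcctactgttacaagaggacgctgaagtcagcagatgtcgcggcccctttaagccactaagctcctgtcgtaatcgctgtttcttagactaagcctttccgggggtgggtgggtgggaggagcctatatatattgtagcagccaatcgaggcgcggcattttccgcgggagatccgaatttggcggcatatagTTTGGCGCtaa
Cdk2: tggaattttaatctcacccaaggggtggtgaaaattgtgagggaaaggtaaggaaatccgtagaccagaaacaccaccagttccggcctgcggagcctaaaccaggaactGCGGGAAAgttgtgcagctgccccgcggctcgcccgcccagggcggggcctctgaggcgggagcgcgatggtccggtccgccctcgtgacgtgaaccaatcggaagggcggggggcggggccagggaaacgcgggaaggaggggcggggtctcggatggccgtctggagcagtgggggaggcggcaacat
Both strands were searched for an E2F motif (TTTGGCGC, TTTGCCGC, TTTCGCGC or TTTCCCGC), the E-box CACGTG that MYC and MAX bind, and the GATA motif AGATAA, and no match overlapped another. The Cdk4 window held 4 E-boxes, which began 172, 118, 98 and 11 bases before the start. Of 32851 promoter windows of the same length, 7.15% held at least 1 E-box and 8 windows, 0.0244%, held as many as 4. The E2F motif was found in the E2f2 window, at position 40 counted with the start as 1, and on the reverse strand of the Cdk2 window, 140 bases before it, against 2.26% of all windows. The Cdk6 window held 1 E-box, and those of Ccnd3 (2 starts), Ccne1 and the other start of E2f2 held none of these motifs. The GATA motif, present in 11.2% of all windows, was in none of the members' windows.

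The arrays did not group as their animal labels say. Over the 11386 genes, array 1 of full-length animal 2 differed from the array of full-length animal 1 by a root mean square of 0.34 log2 units, and from arrays 2 and 3 of its own animal by 0.90 and 0.91. In the truncated mice the same array differed from animal 1 by 0.34 and from arrays 2 and 3 by 0.57 and 0.57. Arrays 2 and 3 differed from each other by 0.14 in both genotypes. Markers of T and NK cells (6 of 8 used here), abundant in healthy spleen, were dim on all arrays, with a list mean of 4.70 to 4.92. Both arrays of a genotype that the labels number replicate 1 (1 per animal) are called its replicate 1 arrays below. Animal means follow the labels, with the 3 arrays of animal 2 averaged. The difference of each member is therefore also given within the replicate 1 arrays and within arrays 2 and 3. For genes of the pathway lists this is done where the 2 settings differ in sign.

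By the brightest probe set of each of the 10 genes, only Ccnd1 had array values that did not overlap between the genotypes. It had higher values in truncated mice, without overlap, on all 3 of its probe sets. Of the 7 Ccnd2 probe sets, 3 that were not its brightest did not overlap either, with lower values in truncated mice. E2f2 was higher in the full-length mice, but only on their replicate 1 arrays. Cdk4, Ccne1, Ccne2 and Ccnd3 had their lowest values on arrays 2 and 3 of full-length animal 2, and Cdk2 hardly varied. No member passed at an adjusted p under 0.05 in limma over all genes, as did 0.0% of the 11386 genes. At an unadjusted p under 0.05, 2 of the 10 passed (Ccnd1 and E2f2), against 14.1% of all genes, and arrays did not overlap for 1 of 10, against 19.0%. The difference (truncated minus full-length) was positive for 6 members and negative for 4, with a median of 0.19 beside -0.01 over all genes.

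**Figure D1:**
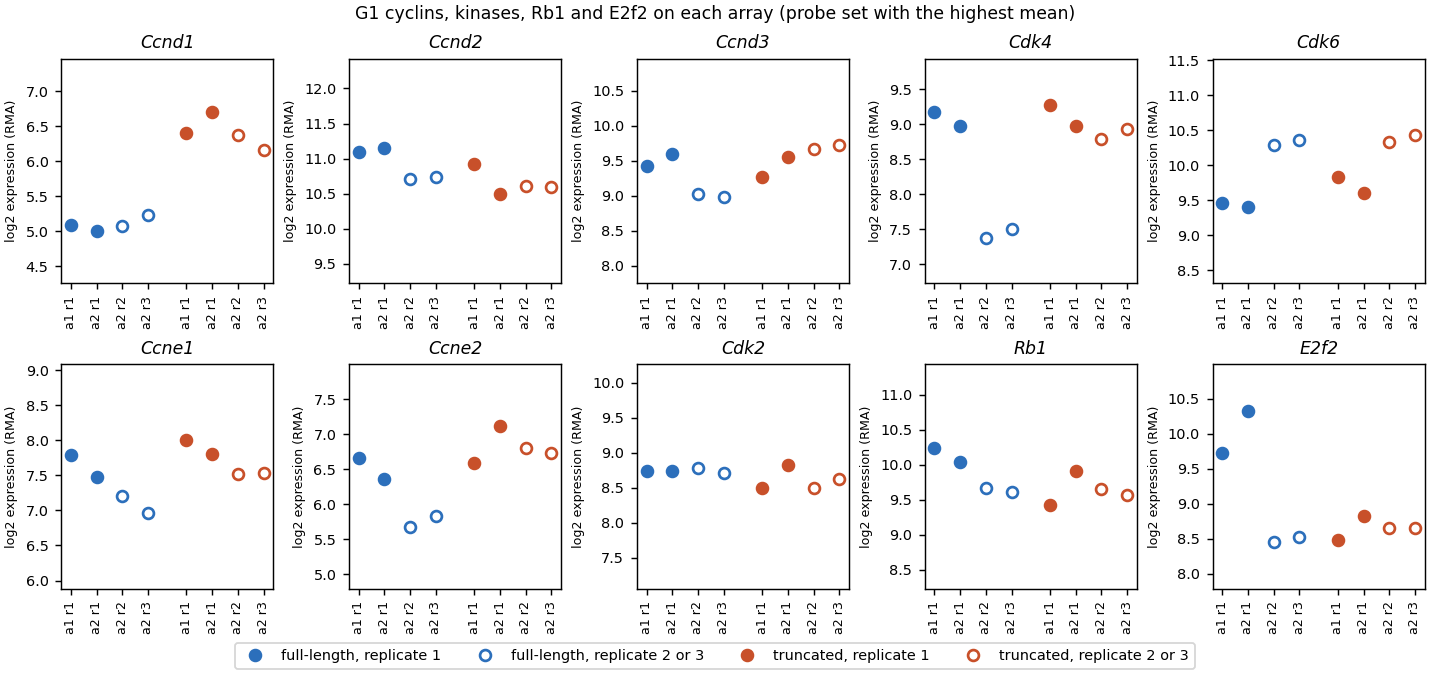
Log2 expression of each gene on the 8 arrays (a, animal; r, replicate number in the labels), with filled points for replicate 1 arrays and open points for arrays 2 and 3 of animal 2; every panel spans the same number of log2 units. Ccnd1 lies between 5.01 and 5.24 in full-length and between 6.16 and 6.71 in truncated arrays, whereas Cdk4 is low only on full-length arrays 2 and 3 and E2f2 is high only on full-length replicate 1 arrays.

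Ccnd1 encodes cyclin D1, the D cyclin that most non-blood tissues use. By its brightest probe set it lay at 5.09 in full-length animal 1 and at 5.01, 5.08 and 5.24 on the arrays of full-length animal 2. In the truncated mice it lay at 6.40 in animal 1 and at 6.71, 6.38 and 6.16 in animal 2. All truncated arrays were above all full-length arrays, and the full-length values sat close to the array medians of 4.71 to 4.78, so they were dim. The animal means were 5.10 ± 0.01 and 6.41 ± 0.01 (log2, SD, n = 2 animals each), which differed by 1.31 with a 95% interval of 0.77 to 1.84, or 2.47-fold (limma, adjusted p = 0.0855). That SD of 0.01 rests on averaging, since single truncated arrays spanned 6.16 to 6.71. The other probe sets differed by 1.21 and 1.32, also without overlap. The difference was 1.51 within the replicate 1 arrays and 1.11 within arrays 2 and 3, so its direction held in both.

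Whether Ccnd1 passed depended on what was taken as the replicate. On 8 arrays it passed with the animal as a random block (adjusted p = 0.0158 in limma, with 3.03% of genes called), and with the replicate block added (difference 1.31, adjusted p = 0.0178 in limma, 5.23% called). It also passed on the replicate 1 arrays alone (adjusted p = 1.07e-05 in limma), where 26.3% of all genes did, and without array 2 or array 3 of full-length animal 2 (adjusted p = 0.0381 and 0.0315 in limma). With arrays averaged by replicate number instead of animal, it had an adjusted p of 0.497 in limma and 0 genes passed. Monocyte and macrophage markers (8 of 8 on the array) also separated the genotypes, with a list mean of 5.93 to 7.08 on full-length and 8.47 to 8.67 on truncated arrays. So did 6 of 6 secondary granule markers of neutrophils, at 7.46 to 9.93 and 11.4 to 11.6. List means of primary granule markers (4.84 to 10.03 and 10.7 to 11.5) did not overlap either. The same held for B cell markers (4.74 to 4.94 and 5.03 to 6.12) and megakaryocyte markers (5.46 to 5.99 and 6.23 to 6.36). In these 3 lists single members did not all follow. Of the megakaryocyte genes only Pf4 separated the genotypes, and Itga2b was highest on full-length arrays 2 and 3 (8.74 and 8.91). Of the B cell genes only Cd79b and Blnk did. Ms4a1 was at 3.53 and 3.93 on the truncated replicate 1 arrays, below every full-length array, and at 6.41 and 6.31 on truncated arrays 2 and 3. Elane, a primary granule gene, overlapped. Among single genes, arrays did not overlap for 19.0%, so separation was common among genes, but no such share was worked out for list means. The part of these cells in the Ccnd1 difference was not tested, and fewer cells of a type and less RNA per cell cannot be told apart in bulk spleen. Markers of stroma and endothelium, cells that use cyclin D1, had a list mean of 4.33 to 4.95 on full-length and 4.39 to 4.76 on truncated arrays (6 of 6 used, of which Col1a1, Cdh5 and Lum were under the filter), but single members differed. The stromal gene Dcn was at 8.94 and 8.47 on the full-length replicate 1 arrays and between 4.56 and 5.29 on the other 6. Pecam1, of the same list, was at 6.62 and 6.83 on the truncated replicate 1 arrays and between 4.09 and 5.21 on the other 6. The other members did not follow either gene. Col1a2 lay between 5.02 and 5.67 on all 8 arrays, the endothelial gene Cdh5 between 3.69 and 4.19, Col1a1 between 3.80 and 4.25, and Lum between 2.94 and 3.47. The part of these cells was not tested either.

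Ccnd2 encodes cyclin D2, the D cyclin that responds to growth factor receptors in lymphoid and myeloid progenitors. By its brightest probe set it lay at 11.09, 11.15, 10.71 and 10.74 on the full-length arrays (animal 1, then arrays 1, 2 and 3 of animal 2) and at 10.92, 10.49, 10.61 and 10.60 on the truncated ones. The full-length replicate 1 arrays were the highest, and the ranges of the genotypes overlapped. Its difference was -0.23 with a 95% interval of -0.86 to 0.40 (limma, adjusted p = 0.779), and it was -0.41 within the replicate 1 arrays and -0.12 within arrays 2 and 3. All 7 probe sets had a lower value in truncated mice, by -0.84 to -0.14, and since they report the same gene on the same arrays they are not 7 separate measurements. Arrays did not overlap for 3 of these 7, while 6.58% of all probe sets had such non-overlapping lower values.

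Ccnd3 encodes cyclin D3, which lymphocytes and erythroid precursors use. It lay at 9.43, 9.59, 9.02 and 8.98 on the full-length arrays and at 9.27, 9.55, 9.67 and 9.72 on the truncated arrays. Arrays 2 and 3 of full-length animal 2 were below all others, whereas arrays 2 and 3 of truncated animal 2 were above all others. The difference of animal means was 0.15 with a 95% interval of -0.49 to 0.78 (limma, adjusted p = 0.878). It was -0.10 within the replicate 1 arrays and 0.69 within arrays 2 and 3, and its 3 probe sets disagreed in sign (-0.35 to 0.15), so no direction can be given for the gene. Arrays 2 and 3 of truncated animal 2 were also the highest in B cell markers (6 of 7 used), with a list mean of 6.04 and 6.12 against 4.74 to 5.18 on the other 6. The same held for plasma cell markers (5 of 5 used), at 8.0 and 8.11 against 5.98 to 6.55. Erythroid markers had a list mean of 7.62 and 7.77 on full-length arrays 2 and 3, where Ccnd3 was lowest, against 9.99 and 9.95 on the full-length replicate 1 arrays. On truncated arrays 2 and 3, where Ccnd3 was highest, the erythroid mean was 7.73 and 7.76, against 8.70 and 8.60 on the truncated replicate 1 arrays. The part of these cells in the Ccnd3 values was not tested.

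**Figure D2:**
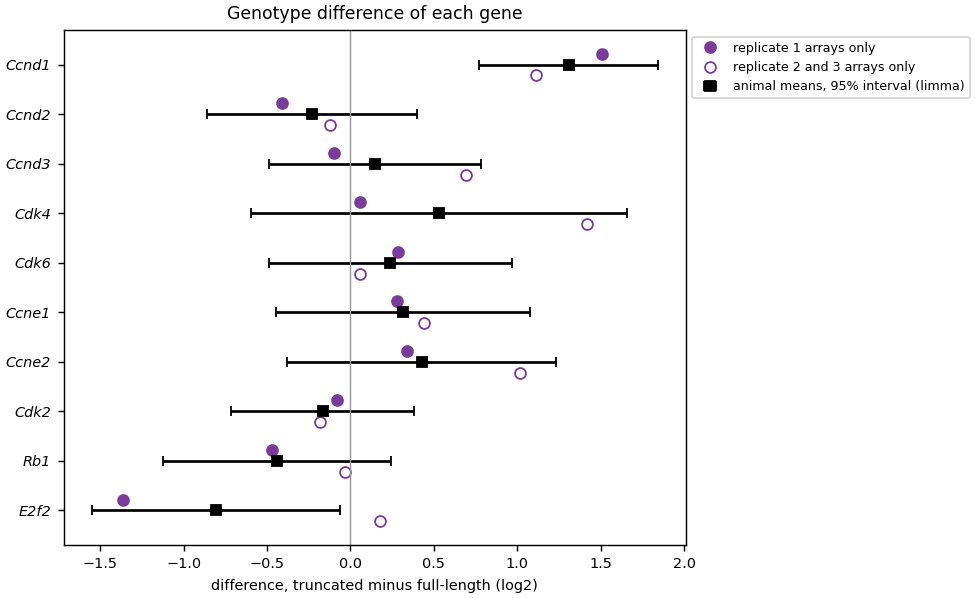
Difference between genotypes (truncated minus full-length, log2) for each gene from animal means with the 95% interval of limma (squares), and within the replicate 1 arrays (filled circles) and within arrays 2 and 3 of animal 2 (open circles). The estimates of Ccnd1 lie between 1.11 and 1.51, and the estimates of E2f2 run from -1.36 to 0.18.

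Cdk4 encodes the kinase that D cyclins activate in most cells, and it varied most of the 10 over the arrays (SD 0.74 over 8 arrays, which 11.6% of all genes reached, beside a median SD of 0.30). By its brightest probe set it lay at 9.17 in full-length animal 1, at 8.98 on array 1 of full-length animal 2, and at 7.38 and 7.51 on arrays 2 and 3. The truncated arrays lay at 9.28, 8.97, 8.79 and 8.93. The 2 low full-length arrays thus stood apart from the other 6, by a mean of -1.63 against the full-length replicate 1 arrays, which is 3.09-fold. The other 2 probe sets gave the same picture, with 6.81 and 7.0, and 7.18 and 7.39, on the low arrays and no value under 8.60 elsewhere. Between genotypes the difference was 0.53 with a 95% interval of -0.60 to 1.66 (limma, adjusted p = 0.705). It was 0.06 within the replicate 1 arrays and 1.42, or 2.67-fold, within arrays 2 and 3. The same 2 full-length arrays also differed in markers of early granulocytes (primary granule genes, 5 of 6 used here), whose mean was 9.99 and 10.03 there against 4.94 and 4.84 on the full-length replicate 1 arrays. On the truncated arrays, where Cdk4 was not low, that mean was 10.7 to 11.5. Other lists differed between these full-length arrays as well. The erythroid mean was 7.62 and 7.77 on arrays 2 and 3 against 9.99 and 9.95 on the replicate 1 arrays. In truncated mice it was 7.73 and 7.76 against 8.70 and 8.60. Secondary granule markers (9.93 and 9.93 against 7.62 and 7.46) and progenitor markers (7.84 and 7.79 against 6.40 and 6.35) were higher on full-length arrays 2 and 3. The part of these cells in the Cdk4 values was not tested.

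Cdk6 encodes the other D cyclin kinase, the one that blood progenitors and many leukemias rely on. It lay at 9.46, 9.40, 10.29 and 10.36 on the full-length arrays and at 9.83, 9.60, 10.33 and 10.43 on the truncated arrays. In both genotypes arrays 2 and 3 of animal 2 were above the replicate 1 arrays, by 0.89 in full-length and 0.67 in truncated mice. A second bright probe set lay at 9.04 to 9.09 and 9.98 to 10.02 on these full-length arrays, and the remaining probe set was dim on all 8. The genotype difference was 0.24 with a 95% interval of -0.49 to 0.97 (limma, adjusted p = 0.810), and it was 0.28 within the replicate 1 arrays and 0.06 within arrays 2 and 3. Kit, the stem cell factor receptor of progenitors, named after its values were seen, was also higher on arrays 2 and 3, at 10.36 and 10.35 against 7.46 and 7.74 in full-length and at 9.92 and 9.96 against 6.63 and 7.62 in truncated mice, and its part in the Cdk6 values was not tested. Within the full-length mice, the same 2 arrays were thus the lowest for Cdk4 and the highest for Cdk6.

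**Figure D3:**
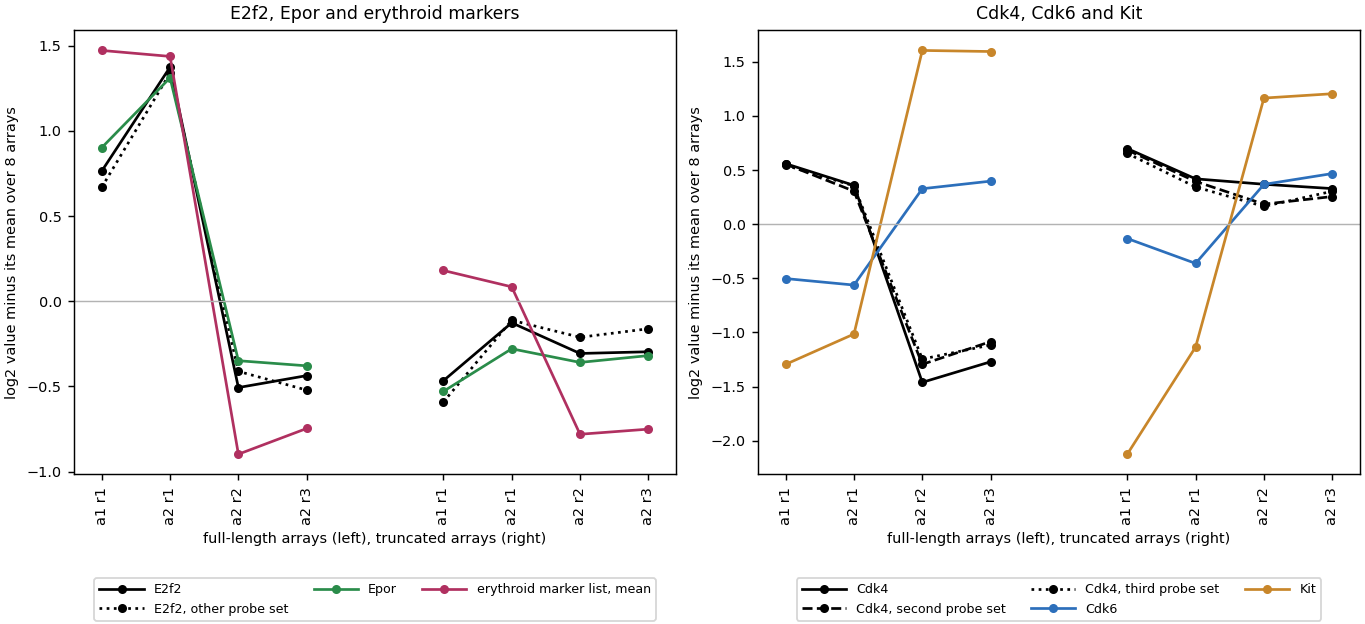
Log2 values per array minus the mean over 8 arrays, for E2f2, Epor and the mean of 10 erythroid markers (left panel) and for the 3 probe sets of Cdk4, Cdk6 and Kit (right panel); full-length arrays are on the left of each panel. All 3 Cdk4 probe sets are lowest on full-length arrays 2 and 3, where Cdk6 is high, and on the truncated arrays E2f2 varies less than the erythroid markers do.

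Ccne1 and Ccne2 encode the E cyclins, which are themselves E2F targets and activate CDK2 late in G1. Ccne1 lay at 7.79, 7.48, 7.20 and 6.96 on the full-length arrays and at 8.01, 7.81, 7.52 and 7.53 on the truncated ones, with overlapping ranges. Its difference was 0.32 with a 95% interval of -0.45 to 1.08 (limma, adjusted p = 0.746), or 0.28 within the replicate 1 arrays and 0.44 within arrays 2 and 3. Its other probe set differed by 0.55. Ccne2, with 1 probe set, lay at 6.66, 6.36, 5.67 and 5.83 on the full-length arrays and at 6.59, 7.12, 6.80 and 6.73 on the truncated arrays. Arrays 2 and 3 of full-length animal 2 were again the lowest. The Ccne2 difference was 0.43 with a 95% interval of -0.38 to 1.23 (limma, adjusted p = 0.656), and it was 0.34 within the replicate 1 arrays and 1.01, or 2.02-fold, within arrays 2 and 3.

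Ccnd3, Cdk4, Ccne1 and Ccne2 were all lower on arrays 2 and 3 of full-length animal 2 than on the other 6 arrays, 4 of 10 members where 12.8% of all genes did so. Ccnd2, Rb1 and E2f2 were higher on the full-length replicate 1 arrays than on the other 6, 3 of 10 members against 18.0% of all genes. Cdk6 was lower there (16.9% of all genes). In both genotypes, Cdk4 and Ccne1 were lower on arrays 2 and 3 than on the replicate 1 arrays, as were 16.6% of all genes. The mean change was -1.63 in full-length and -0.27 in truncated mice for Cdk4, and -0.56 and -0.39 for Ccne1. Cdk6 was higher on arrays 2 and 3 in both genotypes, as were 13.9% of all genes. These patterns were described after the values had been seen, and the first rests on 2 arrays of 1 animal.

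Cdk2 encodes the kinase that the E cyclins activate. It lay between 8.71 and 8.78 on the full-length arrays, with a median of 8.74, and at 8.50, 8.82, 8.50 and 8.63 on the truncated ones. Its SD of 0.12 over the arrays was reached or exceeded by 93.3% of genes, and the difference was -0.17 with a 95% interval of -0.71 to 0.38 (limma, adjusted p = 0.823). It was -0.08 within the replicate 1 arrays and -0.18 within arrays 2 and 3. A second probe set was dim on all 8 arrays.

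Rb1 encodes RB, the pocket protein that D and E cyclin kinases phosphorylate. It lay at 10.24, 10.04, 9.67 and 9.61 on the full-length arrays and at 9.42, 9.91, 9.65 and 9.56 on the truncated arrays. The full-length replicate 1 arrays were the highest, and the rest overlapped. The difference was -0.44 with a 95% interval of -1.12 to 0.24 (limma, adjusted p = 0.570), and it was -0.47 within the replicate 1 arrays and -0.04 within arrays 2 and 3. Its other probe set was dim on all 8 arrays.

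E2f2 encodes an activating E2F factor that RB restrains and that is prominent in red cell precursors. It lay at 9.72 in full-length animal 1 and at 10.33, 8.45 and 8.52 in full-length animal 2, and at 8.49, 8.83, 8.65 and 8.66 on the truncated arrays. Only the full-length replicate 1 arrays stood high, and arrays 2 and 3 of that genotype lay near the lowest truncated array. The animal means were 9.41 ± 0.44 and 8.60 ± 0.16 (log2, SD, n = 2 animals each), which differed by -0.80 with a 95% interval of -1.55 to -0.06 (limma, adjusted p = 0.323). Its second probe set differed by -0.78. Within the replicate 1 arrays the difference was -1.36 (limma, adjusted p = 0.000108, in a fit that called 26.3% of genes), and within arrays 2 and 3 it was 0.18, the opposite sign. Without the 2 full-length replicate 1 arrays it was 0.12 (limma, adjusted p = 0.912), with the spread taken from the truncated animals alone.

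The erythroid markers were high on the same full-length arrays as E2f2. The mean of the 10 markers used was 9.99 and 9.95 on the full-length replicate 1 arrays and 7.62 and 7.77 on arrays 2 and 3. In the truncated mice the mean was 8.70 and 8.60 on the replicate 1 arrays and 7.73 and 7.76 on arrays 2 and 3, while E2f2 stayed between 8.49 and 8.83. Of these 10, Hba-a1 was under the filter on dim genes. Single markers differed in the truncated mice. Alas2 was at 11.18 and 11.34 on their replicate 1 arrays, beside 11.05 and 11.44 on the full-length replicate 1 arrays. Klf1 was at 10.26 and 9.83 on the truncated replicate 1 arrays against 8.62 and 8.59 on truncated arrays 2 and 3. Trim10 ran the other way, at 6.87 and 6.60 against 7.48 and 7.66. The part of red cell precursors in the E2f2 values was not tested.

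**Figure D4:**
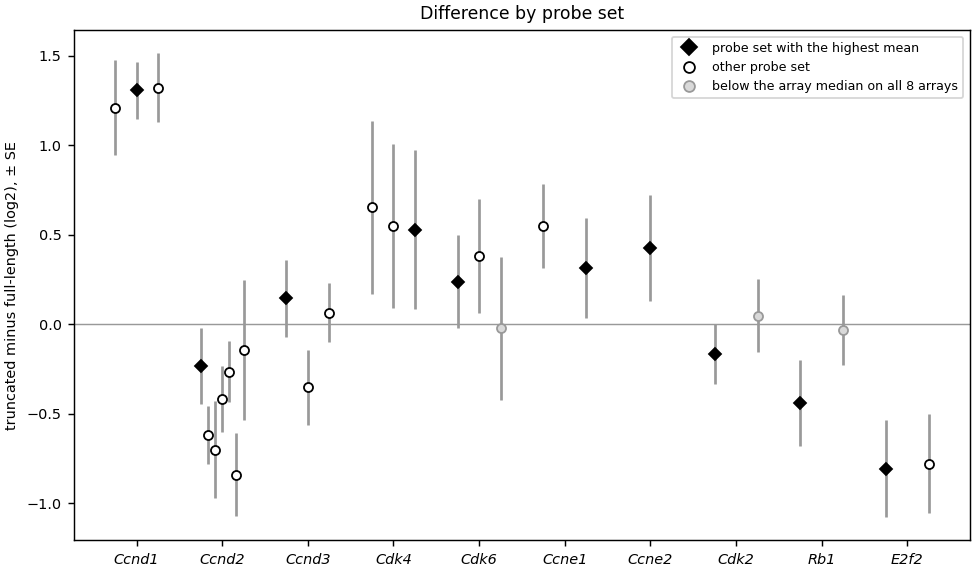
Difference between genotypes (log2, with its standard error from limma over all probe sets) for each of the 28 probe sets, grouped by gene. The 3 probe sets of Ccnd1 lie between 1.21 and 1.32, all 7 of Ccnd2 lie below 0, and those of Ccnd3 fall on both sides of 0.

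Over probe sets, 0 of 28 passed at an adjusted p under 0.05 in limma over 34945 probe sets, as did 0.0% of them all. Arrays did not overlap for 3 with higher values, all of Ccnd1 (6.88% of all probe sets), and for 3 with lower values, all of Ccnd2. Of the 28, 3 were below the array median on all 8 arrays (1 each of Cdk6, Cdk2 and Rb1), and these carry no usable difference.

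The 3 members with the largest SD over the arrays were set beside all other genes by Pearson correlation over the 8 arrays, which come from 4 animals, so the values describe likeness only. Cdk4 was most like Tbc1d5 (r = 0.99), which lay at 4.98 and 5.06 on full-length arrays 2 and 3 and between 6.88 and 7.35 on the others, followed by Gatd3a and Mrpl49 (r = 0.99 for both). Ccnd1 was most like Mmp8, the collagenase of neutrophils, which lay between 6.58 and 6.62 in full-length and between 9.01 and 9.57 in truncated arrays (r = 0.99), then Atxn10 and Spop (r = 0.99 for both). E2f2 was most like the glycolytic gene Pkm and Cachd1 (r = 1.00 for both), and Epor, the erythropoietin receptor (r = 0.99). Epor lay at 9.57 and 9.98 on the full-length replicate 1 arrays and between 8.14 and 8.39 on the other 6.

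Other genes of the pathway were described by 7 lists, and no gene of any list passed at an adjusted p under 0.05 in limma. The CDK inhibitors, which bind and block the kinases above, had 5 of 7 genes above the filter (Cdkn1c and Cdkn2a were not), 1 with a higher and 4 with a lower value and a median difference of -0.39. Cdkn2b, the INK4 inhibitor of CDK4 and CDK6, was at 7.37 and 7.03 on the full-length replicate 1 arrays and between 3.39 and 3.84 on the other 6, where it was dim (difference -2.61, limma, adjusted p = 0.253). Cdkn2d, another INK4 inhibitor, differed by 0.53 (limma, adjusted p = 0.671). The pocket proteins with the other E2F and DP factors had all 11 genes measured, 4 higher and 7 lower, with a median of -0.05, and the largest differences were those of E2f3 (-0.52) and Tfdp2 (-0.46). Tfdp2 was at -0.77 within the replicate 1 arrays and 0.48 within arrays 2 and 3, against -0.36 and -0.32 for E2f3. The 7 MuvB and DREAM genes, which repress cell cycle genes in quiescence and activate them later, had a median of 0.00, with Lin54 at -0.72 and Lin52 at -0.40. Lin52 was at -0.55 within the replicate 1 arrays and 0.16 within arrays 2 and 3, against -0.63 and -0.23 for Lin54.

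The list of CDK activation and cyclin turnover had 13 genes measured, 4 higher and 9 lower, with a median difference of -0.38, which was -0.02 without the 2 full-length replicate 1 arrays. Arrays did not overlap for 3 of them, all lower in truncated mice, where 8.77% of all genes were. Fbxw7, the ubiquitin ligase subunit that marks cyclin E for degradation, lay between 7.54 and 8.13 in full-length and between 6.81 and 6.99 in truncated arrays (difference -0.98, limma, adjusted p = 0.215). Fbxo31, a subunit that targets cyclin D1, lay between 6.75 and 7.25 and between 6.11 and 6.55 (difference -0.72, limma, adjusted p = 0.289). The third was Cdk7, the CDK-activating kinase, named after its values were seen (-0.45).

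The E2F target genes of S phase had 18 of 19 genes measured, 10 higher and 8 lower, with a median difference of 0.01. Rrm2, a subunit of ribonucleotide reductase, differed by 0.83 (limma, adjusted p = 0.276) and the polymerase gene Pola1 by 0.72 (limma, adjusted p = 0.425). Truncated arrays lay wholly above full-length ones for 3 of the 18, against 10.3% of all genes. Within the replicate 1 arrays 7 of 18 were higher in truncated mice, with a median of -0.05 beside 0.003 over all genes. Within arrays 2 and 3, with 1 animal per genotype, it was 16 of 18, with a median of 0.24 beside -0.02 over all genes. The share of all genes higher in that setting was not worked out, so the 16 of 18 is a description only. Without the 2 full-length replicate 1 arrays the median was 0.46, beside 0.005 over all genes. The S and M phase cyclins and Cdk1 had 4 of 6 genes measured and a median of 0.05, with Ccna2 at 0.22 and Ccnf at -0.13. Ccnf was at 0.10 within the replicate 1 arrays and -0.25 within arrays 2 and 3, against 0.35 and 0.02 for Ccna2. The genes of mitogen signals to D cyclins had 9 of 9 measured and a median of -0.08. Arrays did not overlap for 2 with higher values, Csf3r and Flt3 (10.3% of all genes), and for 1 with lower values, Myc (8.77% of all genes). Flt3 (difference 0.79) and Myc (-0.69) were named after their values were seen. Csf3r, the G-CSF receptor of neutrophils, was at 7.29 ± 0.11 and 8.91 ± 0.13 (log2, SD, n = 2 animals each), with no overlap of arrays and a difference of 1.62 (limma, adjusted p = 0.0816). Epor differed by -0.97 (limma, adjusted p = 0.270). It was at -1.51 within the replicate 1 arrays and 0.03 within arrays 2 and 3, so its direction did not hold in both.

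**Figure D5:**
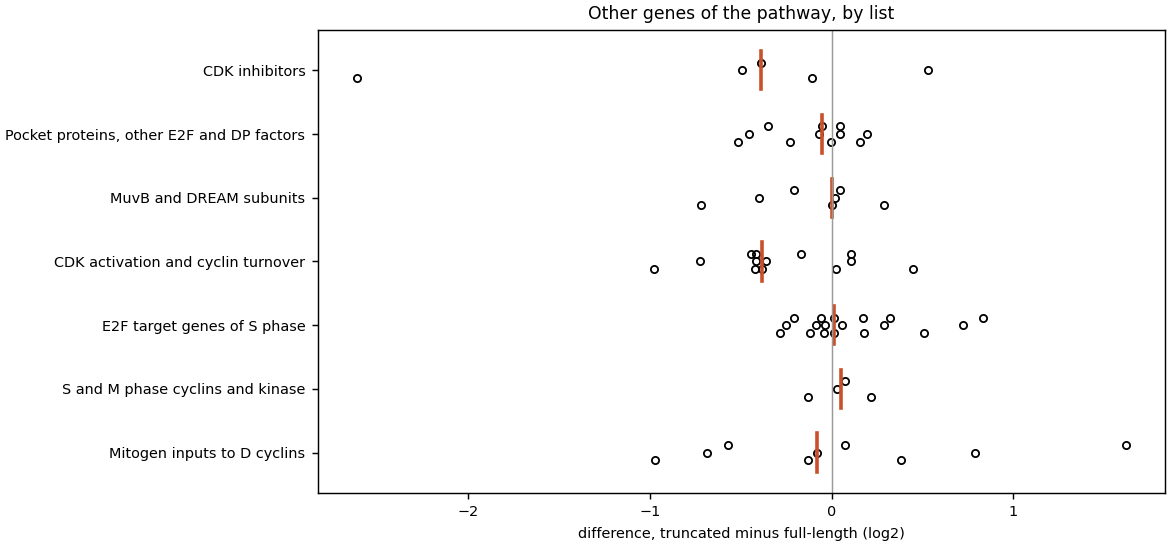
Difference between genotypes (truncated minus full-length, log2) of each measured gene in the 7 pathway lists (open circles, jittered only for sight) with the list median (bars). Medians run from -0.39 for CDK inhibitors to 0.05 for the S and M phase cyclins, beside -0.01 over all genes tested.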

How the data were processed

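The deposited table held 1 column of log2 values for each of 8 arrays. The authors made them with RMA (background subtraction, quantile normalization and probe summary), per the submitters' processing notes, with no version given and the log base taken from the span of the values. RMA draws dim values together, and there were no detection calls. Probe sets with 1 gene in the platform annotation were used (34945); 932 with several genes and 9160 with none were left out.

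The arrays of each animal were averaged, the probe set with the highest mean stood for a gene, and genes were kept as the report states. Genotypes were compared in limma 3.58.1 (lmFit, eBayes; R version 4.3.3) (2 residual and 3.25 prior degrees of freedom), with Benjamini-Hochberg adjustment over all genes and a threshold of 0.05. The fit was tested on simulated data. With 2 animals a genotype, the smallest two-sided p of an exact permutation test is 0.333, so none was run. The number of arrays limits the precision. Whether arrays of an animal were separate extractions is not given.

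Arrays with the same animal and replicate number deviated together across genotypes (correlations of 0.30, 0.14, 0.23 and 0.21 over 11386 genes). So did arrays of unlike label within replicate 1 (0.12 and 0.16) and within replicates 2 and 3 (0.23 and 0.22), while the other pairs ran from -0.25 to -0.13. The shared deviation thus separated replicate 1 from replicates 2 and 3 and did not single out the animal. The fit with the replicate block is given beside Ccnd1. The members, gene lists and tests were chosen with earlier results of these data known. Genes were named by rule: all 10 members, the 2 genes with the largest difference in each pathway list, and the 3 genes most like each of the 3 most variable members. Single genes of the cell type marker lists, Kit, Cdk7, Flt3, Myc and the genes beside Cdk4 were named outside this rule, with their values known. Alternatives were filters, probe set rules, centring, priors, blocks and left-out arrays. Averaging by replicate number was added after the arrays had been compared. Promoters are from RefSeq (GRCm38.p6). No value column was left unmapped. Some marker genes are not reported here.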

Additional observations from a re-analysis of the deposited data

Results flagged for a closer look

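On the Ccnd2 probe set whose identifier ends in x_at, the array of truncated animal 1 lay at 10.67, apart from the other 3 truncated arrays at 9.77 to 9.88 by Dixon's test. The full-length arrays of this probe set lay between 9.86 and 10.72. It was the only flag among 56 groups of 4 arrays tested. Chance flags about 1 in 20 groups when the values are independent. These were not, since each group held 1 array of animal 1 and 3 arrays of animal 2, and probe sets of a gene share arrays. Truncated animal 1 had 1 array, so an outlying array and a difference between animals cannot be told apart. The x_at ending marks probe sets that can match related sequences. The brightest probe sets of Cdk4 and Ccne1, which gave the values of those genes, have the same ending. Their other probe sets differed by 0.65 and 0.55 for Cdk4, beside 0.53, and by 0.55 for Ccne1, beside 0.32. The brightest Ccnd2 probe set had 10.92 on the array of truncated animal 1 against 10.49 to 10.61 on the other truncated arrays.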

How the results depend on the processing

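The number of genes at an adjusted p under 0.05 in limma, 0 on animal means (1605 at an unadjusted p under 0.05), was 1 with the stricter filter, 345 on 8 arrays with the animal as a random block, 596 with the replicate block as well and 2998 on the replicate 1 arrays, and 0 to 665 when each animal or array was left out in turn, with 665 without full-length animal 2, 344 without its array 2 and 427 without its array 3. Against the fit on 8 arrays with the animal as a random block, adding the replicate block changed the call of no member. Ccnd1 kept its direction in all 12 alternatives (1.11 to 1.51) and all 10 settings that left out an animal or array (1.23 to 1.37). Cdk2, Rb1, Ccne1 and Ccne2 kept theirs too, without passing in any. Without the full-length replicate 1 arrays, which were high in erythroid genes, Ccnd2 was at 0.020, Cdk6 at -0.35 and E2f2 at 0.12, against the sign on all arrays; E2f2 was at 0.18 on arrays 2 and 3. Ccnd3 was at -0.047 as the mean of its probe sets and at -0.096 on the replicate 1 arrays. When 1 animal or array was left out, Ccnd3 ran from -0.041 to 0.33, Cdk4 from -0.075 (without full-length animal 2) to 1.13, and Cdk6 from -0.040 (without full-length animal 1) to 0.52. List medians that changed sign were the CDK inhibitors (0.11 on arrays 2 and 3), the pocket and E2F list (0.012 on the replicate 1 arrays), the MuvB list (-0.060 on the replicate 1 arrays, -0.23 on arrays 2 and 3, -0.24 without those 2 arrays, -0.096 as probe set means), the E2F targets (-0.046 on the replicate 1 arrays, -0.038 as probe set means), the S and M phase list (-0.12 on arrays 2 and 3) and the mitogen list (0.002 on the replicate 1 arrays). Without the 2 full-length replicate 1 arrays, the medians of the turnover list (-0.018) and the E2F targets (0.46) moved without changing sign. The cause of these changes was not tested. Where a genotype was left with 1 animal, that animal was assumed to vary like those of the other genotype. Arrays 2 and 3 hold 1 animal per genotype, so that setting gave values with no count of genes. Dim values near the array median, as for Ccnd1 in full-length mice, limit the size of a difference.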

Other observations

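Genes beside Cdk4 on its chromosome, chosen after the low Cdk4 values had been seen, did not share 1 pattern on arrays 2 and 3 of full-length animal 2. Tspan31, the next gene, whose model overlaps that of Cdk4 by 2 bases, was lower there than on the full-length replicate 1 arrays by a mean of -1.18, with 7.90 on both against 9.28 and 8.89. The further neighbours Arhgef25 (-2.83) and Tsfm (-0.64) were also lower, Mettl1 (-0.18), Os9 (-0.07) and Agap2 (0.09) were close to level, and Avil (3.07) was higher. No test was made of these values.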
